A study of Homo sapiens with 9 samples.

Results

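The 40 genes described here serve glucose uptake, glycolysis, phosphoglucomutase activity, lactate handling and the response to low oxygen, and they were taken by symbol from the 61155 symbols counted in each library. They were chosen by known function, but with earlier results of these data known. PGM5 was put in because its RNA had already been seen to be lower in both knockout clones. PGM5 is therefore described without a test. RNA was sequenced from MDA-MB-231, an established human breast cancer line of the basal-like type. KO1 (clone #1) and KO2 (clone #2) were FBXL12-KO clones, WT cells were FBXL12-WT and carried a scrambled control gRNA, and each group gave 3 libraries. FBXL12 codes for an F-box protein, and such proteins pick out the substrates of SCF ubiquitin ligases. Each clone grew from 1 cell, so an effect of the knockout in 1 clone and a trait of its founder cell cannot be told apart. The sources used here give no oxygen level or culture conditions.

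Libraries held 52427841 to 97243363 counts. FBXL12 RNA averaged 9.61 ± 0.202 CPM in KO1, 5.95 ± 0.535 CPM in KO2 and 22.3 ± 0.826 CPM in WT (counts scaled by the library total; ± is the SD over n = 3 libraries for CPM throughout), so the targeted RNA was lower in both clones and still present. The line's markers VIM, CD44, EGFR and KRT18 lay at 381 CPM or above in all 9 libraries, ESR1, PGR and CDH1 at 0.155 CPM or below, and EPCAM between 0.534 and 5.17 CPM. A sum over 7 markers of leukocytes, endothelium and fibroblasts ran from 2.19 to 2.59 CPM in KO1, 2.31 to 2.73 CPM in KO2 and 1.83 to 2.37 CPM in WT, with 2 or 3 of the 7 at 0 in each library. LUM was at 0 in all of them. PDGFRB, a fibroblast and pericyte marker, made up most of that sum, at 1.68 ± 0.140 CPM in KO1, 1.84 ± 0.197 CPM in KO2 and 1.18 ± 0.154 CPM in WT, and it rose by 0.51 in KO1 (adjusted p = 0.020) and by 0.63 in KO2 (adjusted p = 0.0039). Mitochondrial genes took 3.28% to 3.97% of counts in KO1, 4.49% to 5.39% in KO2 and 3.52% to 3.83% in WT. The part of these differences, and of those in PDGFRB and the line's markers, in the results was not tested. In bulk RNA, fewer cells of a type and less RNA per cell cannot be told apart.

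Glycolysis turns glucose into pyruvate in the cytosol, and many of its steps are served by several isozymes coded by separate genes. Hypoxia-inducible factor (HIF) is a transcription factor whose alpha subunits are hydroxylated by prolyl hydroxylases and degraded while oxygen is present. When oxygen falls, the alpha subunits persist and raise the transcription of genes for glucose uptake, glycolysis, blood vessel growth, pH control and mitophagy. MDA-MB-231 is known as a strongly glycolytic line.

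The glycolytic and hypoxia genes did not move as a block in either clone. GAPDH, EGLN1 and ADM fell in both clones, ENO2 and PGM1 rose in both, and VEGFA, CA12 and KDM3A rose in KO1 and fell in KO2. Calls came from edgeR's quasi-likelihood test over all 17759 genes that passed a filter on low counts, at a Benjamini-Hochberg adjusted p under 0.05. Of the 40 genes 39 passed the filter, CA9 did not, and the counts below leave out PGM5, so they run over 38. In KO1 11 of the 38 rose and 6 fell, beside 18% and 16.8% of all tested genes. In KO2 9 rose and 12 fell, beside 24.7% of all tested genes in each direction. Because the genes were chosen with earlier results of these data known, nothing is read from those shares. Between the clones, 12 of the 38 were higher in KO1 than in KO2 and 12 were lower, 31.6% each way, beside 23.9% and 24.9% of all tested genes. The median log2 change of the 38 was 0.02 in KO1 and -0.00 in KO2, beside -0.00 and -0.01 over all tested genes. Their median change regardless of sign was 0.18 in KO1 and 0.20 in KO2, beside 0.21 and 0.29 over all tested genes.

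Set side by side, the clones shared a direction in 5 of the 38 genes: 3 fell in both and 2 rose in both, 7.89% and 5.26% of the 38, beside 7.58% and 7.48% of all tested genes. The 3 that rose in KO1 and fell in KO2 were 7.89%, beside 4.48%, and none did the reverse, beside 3.02%. In KO2 6 genes fell without a call in KO1 (15.8%, beside 12.7%) and 7 rose (18.4%, beside 14.2%). In KO1 3 genes fell without a call in KO2 (7.89%, beside 6.17%) and 6 rose (15.8%, beside 6.06%). Nothing is read from these shares either, and a call in 1 clone does not show that the clones differ. The 8 genes called in neither clone were SLC2A3, PFKL, PFKP, PFKFB3, PFKFB4, TPI1, PGK1 and LDHB. The genes are richer in G and C than most, with a median of 52.9% in their transcripts beside 48.5% over all tested genes. With each library's trend against GC content removed, KO1 had 17 higher and 6 lower genes (73.9% of its calls higher, against 64.7% without the correction), beside 21.4% of all tested genes higher and 17.9% lower in that fit. KO2 then had 16 higher and 13 lower genes (55.2% of its calls higher, against 42.9%), beside 30.1% of all tested genes higher and 25% lower. The same direction was called with and without the correction for 16 genes in KO1 and 19 in KO2.

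PGM5 is a phosphoglucomutase relative known from work on other tissues as a protein of cell adhesion sites that lacks the enzyme activity of PGM1. It had 15.8, 14.7 and 16.4 CPM in KO1, 5.04, 4.28 and 4.96 CPM in KO2, and 45.7, 47.7 and 47.7 CPM in WT. All 3 groups were separate, with KO2 lowest. The mean was 33.2% of WT in KO1 and 10.1% in KO2, log2 changes of -1.59 and -3.31, which are the values that put the gene on the list. PGM5 lies on chromosome 9, chr9:68328308-68531061 (GRCh38, plus strand). The antisense gene PGM5-AS1 had 24, 29 and 12 counts in KO1, 0, 1 and 0 in KO2, and 65, 33 and 38 in WT. It was thus lowest in KO2 as well; the sources used here do not say whether counting used the strand, so its reads and those of PGM5 cannot be told apart with certainty. The pseudogene PGM5P2 averaged 6.09 CPM in KO1, 3.51 CPM in KO2 and 5.74 CPM in WT.

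Of the active phosphoglucomutases, PGM1 rose in both clones and PGM2 rose in KO1. PGM1, which links glycogen to glycolysis by moving the phosphate on glucose, rose in KO2 by 0.57 ± 0.04 (log2 change ± SE, adjusted p = 1.5e-08) and in KO1 by 0.11 ± 0.04 (adjusted p = 0.046). PGM1 averaged 92.8 ± 0.863 CPM in KO1, 128 ± 2.30 CPM in KO2 and 86.4 ± 2.30 CPM in WT, with no overlap of the groups. The KO1 call of PGM1 was lost on leaving out any single library but KO2 replicate 3, at log2 changes of 0.09 to 0.12. PGM2, which acts on pentose phosphates as well, rose in KO1 by 0.25 ± 0.04 (adjusted p = 0.00023) and had a change of -0.08 in KO2 (adjusted p = 0.13), or -0.13 with the GC trend removed (adjusted p = 0.00061). Summed over PGM1, PGM2 and PGM5, the family held 303 CPM in KO1, 289 CPM in KO2 and 298 CPM in WT.

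Of the glucose carriers, SLC2A1, the main one in most cultured cells, had 295, 256 and 279.8 CPM in KO1, 235, 246 and 231 CPM in KO2, and 249, 266 and 262 CPM in WT. KO2 libraries all lay below the WT libraries, and KO1 libraries overlapped them. SLC2A1 fell in KO2 by 0.13 ± 0.05 on the log2 scale (adjusted p = 0.039), with 0.10 ± 0.05 in KO1 (adjusted p = 0.15). That KO2 call was lost without KO1 replicate 3, KO2 replicate 1 or 3, or WT replicate 2 or 3, at -0.13 to -0.10. With the GC trend removed the change was -0.00 in KO2, while SLC2A1 was called in KO1 at 0.23 (adjusted p = 3.1e-07). SLC2A3, a carrier of high affinity, had 27.7 ± 1.27 CPM in KO1, 29.6 ± 0.803 CPM in KO2 and 29.6 ± 1.35 CPM in WT and was called in neither clone, but at -0.13 in KO1 with the GC trend removed (adjusted p = 0.025).

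Hexokinases trap glucose in the cell by phosphorylation. HK1, the widely expressed form, rose in KO2, with 291 ± 10.0 CPM there, 199 ± 6.29 CPM in KO1 and 211 ± 5.36 CPM in WT (log2 change 0.46 ± 0.04 in KO2, adjusted p = 3.6e-07). HK2, the form known as HIF-induced and common in tumours, had 246, 243 and 248 CPM in KO1, 223, 228 and 240.4 CPM in KO2, and 221, 231 and 224 CPM in WT. The KO1 libraries of HK2 all lay above the others, by little. HK2 rose in KO1 by 0.13 ± 0.04 (adjusted p = 0.025), a call lost without KO1 replicate 3 (0.12), WT replicate 1 (0.10) or WT replicate 3 (0.12). GPI, which turns glucose phosphate into fructose phosphate, fell in KO1 by 0.21 ± 0.05 (adjusted p = 0.0051), or -0.09 with the GC trend removed.

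Phosphofructokinase commits sugar to glycolysis and has a liver, a muscle and a platelet form. The muscle form PFKM rose in KO2, at 144 ± 3.38 CPM there, 116 ± 0.0414 CPM in KO1 and 122 ± 0.404 CPM in WT (log2 change 0.24 ± 0.04 in KO2, adjusted p = 0.00011). PFKL had a change of -0.38 in each clone with standard errors of 0.14 in KO1 and 0.15 in KO2 and passed in neither (adjusted p = 0.081 and 0.061). The same PFKL change was called in both clones by DESeq2, at -0.37 in KO1 (adjusted p = 0.0048) and -0.38 in KO2 (adjusted p = 0.0024), and by limma-voom, at -0.38 in KO1 (adjusted p = 0.024) and -0.37 in KO2 (adjusted p = 0.022). PFKL had -0.04 in KO1 and 0.05 in KO2 once the GC trend was removed. PFKP, the most abundant form per exon length, had -0.23 in KO1 and 0.08 in KO2 without a call; DESeq2 called the KO1 change (-0.23, adjusted p = 0.023), and so did limma-voom (adjusted p = 0.041). The GC correction called PFKP higher in KO2, at 0.24 (adjusted p = 5.4e-06). PFKFB3 and PFKFB4, which set the level of the sugar bisphosphate that stimulates phosphofructokinase, stayed within 0.13 of WT on the log2 scale in both clones, also without a call. The GC correction brought calls of PFKFB3 at 0.24 in KO1 (adjusted p = 6.4e-06) and 0.19 in KO2 (adjusted p = 7.4e-05), and of PFKFB4 at 0.23 in KO2 (adjusted p = 0.0089).

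The brain-type aldolase ALDOC, which cleaves the sugar bisphosphate into trioses, had 4.88, 3.80 and 3.71 CPM in KO1, 8.05, 9.17 and 8.60 CPM in KO2, and 4.57, 5.33 and 4.72 CPM in WT. KO2 stood above both other groups, which overlapped. ALDOC rose in KO2 by 0.82 ± 0.12 on the log2 scale (adjusted p = 2.7e-05). ALDOA, the muscle-type and usually dominant aldolase, had 2.80, 1.70 and 2.49 CPM in KO1, 1.93, 2.53 and 1.43 CPM in KO2, and 2.67, 3.99 and 3.61 CPM in WT. KO2 libraries lay below the WT libraries, and KO1 overlapped WT; DESeq2 called ALDOA in KO1 as well (-0.55, adjusted p = 0.039). It fell in KO2 by 0.80 ± 0.24 (adjusted p = 0.017), a call lost without KO2 replicate 1 (-0.79), KO2 replicate 3 (-0.60), WT replicate 2 (-0.66) or WT replicate 3 (-0.76). ALDOA's counts are doubtful as a level: 42.3% of its exon bases are shared with the same-strand gene AC093512.2 in GENCODE 29, and it ranked 35 of 40 per exon length in WT. TPI1, which interconverts the trioses, averaged 908 ± 19.9 CPM in KO1, 946 ± 34.3 CPM in KO2 and 949 ± 29.3 CPM in WT, without a call.

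Among the later steps, GAPDH, which oxidises triose phosphate, fell in both clones, and PKM, which makes pyruvate, fell in KO2. GAPDH averaged 2502 ± 84.3 CPM in KO1, 2656 ± 103 CPM in KO2 and 3057 ± 154 CPM in WT, with every KO library below every WT library. Its log2 changes were -0.29 ± 0.05 in KO1 (adjusted p = 0.00026) and -0.21 ± 0.05 in KO2 (adjusted p = 0.0020). With the GC trend removed they were -0.14 in KO1 (adjusted p = 0.0042) and -0.06 in KO2 (adjusted p = 0.16). PKM had 3165, 3035 and 3048 CPM in KO1, 2195, 2255 and 2149.7 CPM in KO2, and 3037, 3172 and 3064 CPM in WT. The KO2 libraries were apart from the other 6, which overlapped. PKM fell in KO2 by 0.49 ± 0.04 (adjusted p = 5.1e-08) and had -0.00 ± 0.04 in KO1, or 0.12 with the GC trend removed.

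ENO1 and PGAM1, which act on the phosphoglycerates, fell in KO1; in KO2 neither was called, except under other settings. ENO1 averaged 3267 ± 115 CPM in KO1, 3852 ± 91.1 CPM in KO2 and 3697 ± 101 CPM in WT (log2 change -0.18 ± 0.04 in KO1, adjusted p = 0.0026). The GC correction moved that change to -0.10, and it called ENO1 higher in KO2, at 0.11 (adjusted p = 0.00086). PGAM1 fell by 0.10 ± 0.04 in KO1 (adjusted p = 0.038), a call lost without any single KO1 library, KO2 replicate 1, WT replicate 1 or WT replicate 2, at -0.11 to -0.09. PGAM1 had -0.04 in KO1 without a call once the GC trend was removed, and it was then called in KO2 at 0.11 (adjusted p = 0.0017), as it was with upper quartile factors (0.11, adjusted p = 0.027). ENO2, the neuron-type enolase and a known HIF target, rose in KO1 by 0.18 ± 0.04 (adjusted p = 0.0034) and in KO2 by 0.24 ± 0.04 (adjusted p = 0.00019). ENO2 averaged 74.7 ± 1.70 CPM in KO1, 78.1 ± 0.833 CPM in KO2 and 66.1 ± 1.46 CPM in WT, with both clones above WT in every library. PGK1, the first ATP-making step and a textbook HIF target, averaged 734 ± 30.2 CPM in KO1, 717 ± 12.5 CPM in KO2 and 714 ± 34.9 CPM in WT, without a call.

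Lactate dehydrogenase A, which turns pyruvate into lactate, had 2922, 3079.5 and 3015 CPM in KO1, 2758, 2756 and 2674 CPM in KO2, and 2982, 2858 and 2924 CPM in WT. KO2 libraries of LDHA lay below the other 6, and KO1 overlapped WT. LDHA fell in KO2 by 0.10 ± 0.04 (adjusted p = 0.033), a call lost without KO1 replicate 3, KO2 replicate 2 or 3, or any single WT library, at -0.11 to -0.08. With the GC trend removed the KO2 change of LDHA was -0.15 (adjusted p = 7.7e-05), and with upper quartile factors it was -0.06 without a call (adjusted p = 0.18). LDHB, the form that favours pyruvate, averaged 33.7 ± 2.37 CPM in KO1, 35.2 ± 0.979 CPM in KO2 and 33.8 ± 2.50 CPM in WT, without a call, and 33.4% of its exon bases are shared with the same-strand gene AC010197.2. PDK1, the kinase that shuts pyruvate out of the mitochondrial cycle, rose in KO1 by 0.27 ± 0.09 (adjusted p = 0.041). The PDK1 call was lost without KO1 replicate 2 (0.18), KO2 replicate 2 (0.26), WT replicate 2 (0.21) or WT replicate 3 (0.26). In KO2 PDK1 was called lower with the GC trend removed, at -0.21 (adjusted p = 0.017).

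Lactate leaves the cell through monocarboxylate carriers, of which SLC16A3 is the HIF-induced exporter. SLC16A3 had 153, 99.6 and 128 CPM in KO1, 92.8, 102 and 80.5 CPM in KO2, and 133, 167 and 142 CPM in WT. KO2 lay below WT without overlap, while KO1 spanned a wide range that overlapped both. SLC16A3 fell in KO2 by 0.69 ± 0.18 (adjusted p = 0.017), a call lost without KO2 replicate 3 (-0.60) or WT replicate 2 (-0.58), and the change was -0.19 with the GC trend removed. In KO1 the SLC16A3 change was -0.22 ± 0.18, or 0.16 with that correction. SLC16A1, the carrier found in most tissues, had 66, 76 and 97 counts in KO1, 32, 51 and 37 in KO2, and 56, 41 and 30 in WT, that is 0.850, 0.949 and 1.11 CPM in KO1, 0.610, 0.777 and 0.586 CPM in KO2, and 0.576, 0.665 and 0.477 CPM in WT. KO1 stood above the other groups. SLC16A1 rose in KO1 by 0.77 ± 0.21 (adjusted p = 0.010), a call lost without KO1 replicate 3 (0.66).

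**Figure D1:**
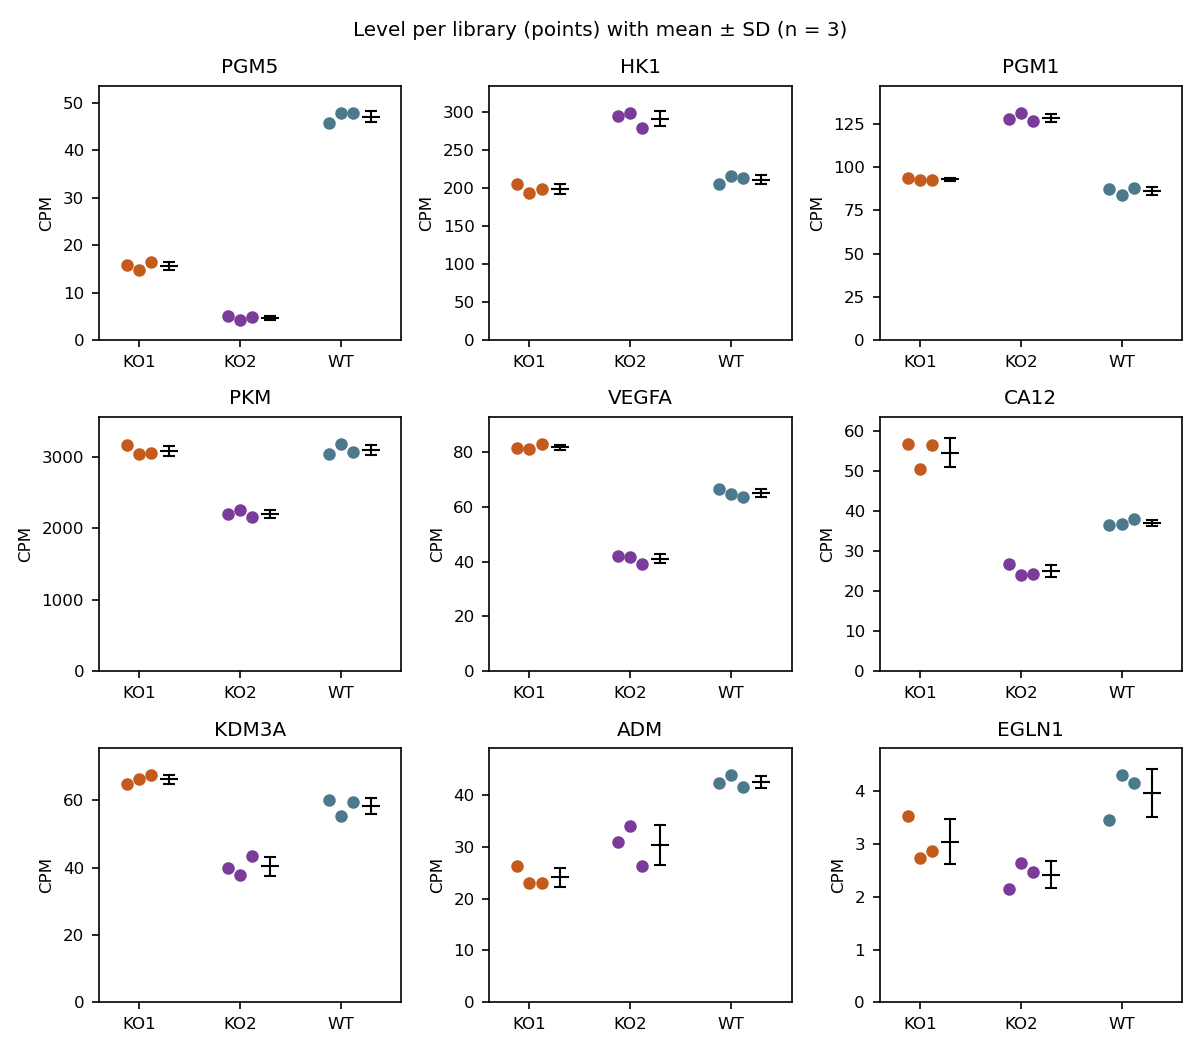
CPM (y axis, from 0) of 9 of the genes in each of the 3 libraries of KO1, KO2 and WT (points, left to right) with the mean ± SD beside them. HK1 and PGM1 stand highest in KO2, PKM lowest in KO2, and VEGFA, CA12 and KDM3A highest in KO1 and lowest in KO2.

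Isozyme shares, computed in each library from CPM per kilobase of exon, showed where families shifted their make-up. They are a description without a test, and their size depends on exon lengths that cover all annotated exons of a gene. HK1 made up 43.9% ± 0.699 of hexokinase in KO1, 54.9% ± 1.78 in KO2 and 47.5% ± 0.343 in WT, so HK1 was the larger part in KO2 and HK2 in KO1 and WT. PGM1 made up 28.7% ± 0.655 of phosphoglucomutase in KO1, 41.6% ± 0.825 in KO2 and 28.8% ± 0.715 in WT. PGM5 contributed 2.74% ± 0.171 in KO1, 0.874% ± 0.0797 in KO2 and 8.90% ± 0.389 in WT. That decrease follows from the fall for which PGM5 was put on the list. The PGM1 share is taken of a total that includes PGM5, so the fall of PGM5 enters it. Within phosphofructokinase, PFKP held 68.5% ± 1.78 in KO1, 69.7% ± 0.639 in KO2 and 69.7% ± 0.797 in WT. PFKM held 23.8% in KO1, 24.0% in KO2 and 21.6% in WT, and PFKL 7.66% in KO1, 6.25% in KO2 and 8.64% in WT. ENO1 held 97.3% of enolase in KO1, 97.6% in KO2 and 97.8% in WT, and LDHA 97.7%, 97.4% and 97.6% of lactate dehydrogenase in KO1, KO2 and WT.

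**Figure D2:**
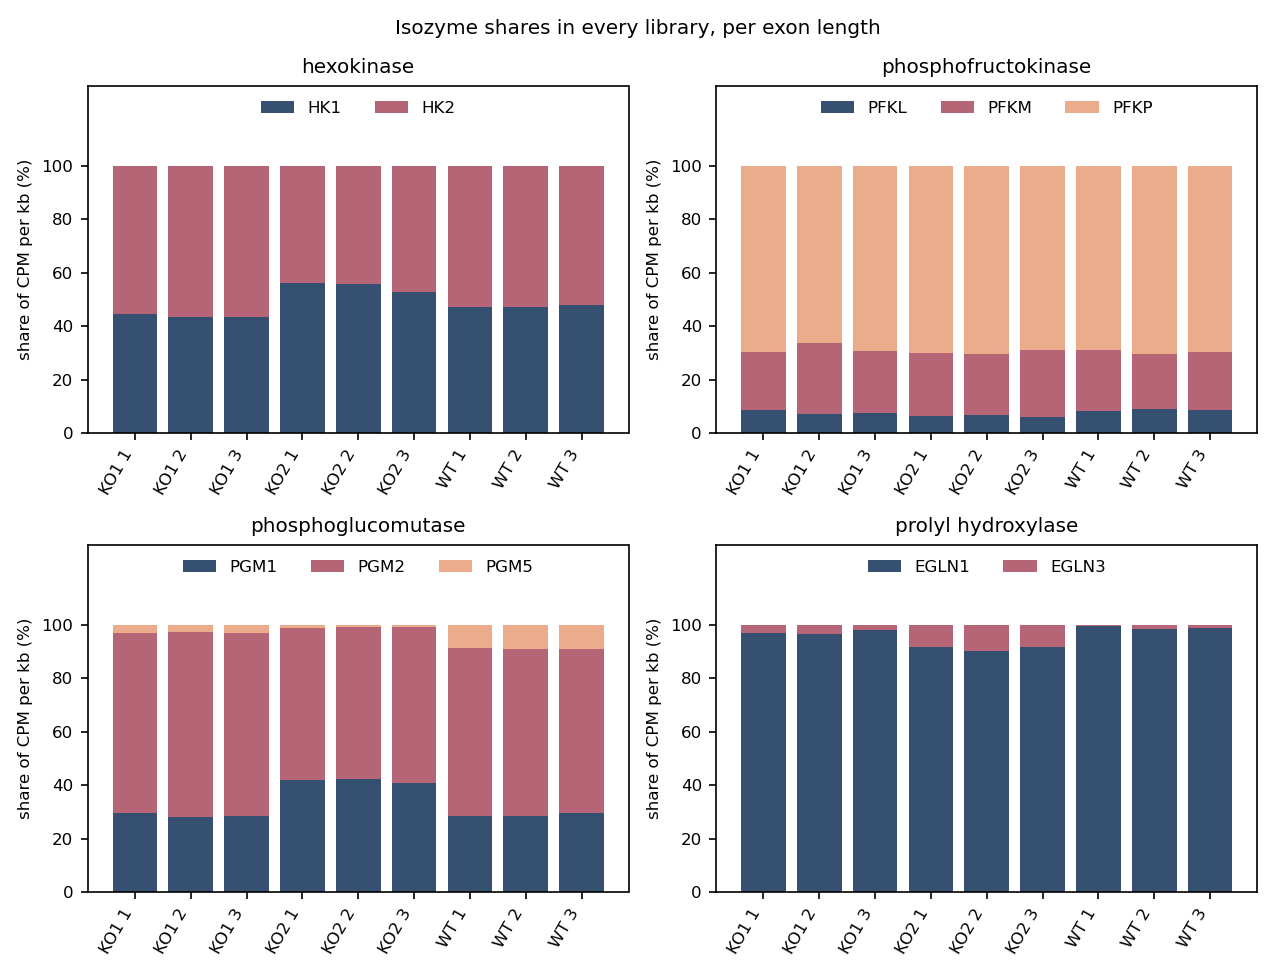
Share of each isozyme within its family (y axis, percent of CPM per kilobase of exon) in the 9 libraries, KO1 and KO2 left of WT; each bar sums to 100. HK1 and PGM1 take a larger share in all 3 KO2 libraries, and PFKP is the largest phosphofructokinase share in all 9 libraries. The PGM5 share is smaller in both clones, and PGM5 was put on the list for its fall.

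Of the HIF alpha subunits, EPAS1 rose in KO2, and HIF1A passed in KO2 by a narrow margin. HIF1A had 520.5, 572 and 549 CPM in KO1, 539, 549 and 577 CPM in KO2, and 511, 484 and 534 CPM in WT. KO2 lay just above WT, and KO1 overlapped WT. HIF1A rose in KO2 by 0.12 ± 0.05 (adjusted p = 0.044), with 0.11 ± 0.05 in KO1 (adjusted p = 0.091). The HIF1A call was lost without KO1 replicate 3, any single KO2 library, WT replicate 1 or WT replicate 2, at 0.09 to 0.14. With the GC trend removed the KO2 change of HIF1A was 0.08 and still called (adjusted p = 0.021). In KO1 HIF1A was called without a low-count filter (0.12, adjusted p = 0.045) and without KO1 replicate 1 (0.15, adjusted p = 0.022). Between the clones HIF1A had -0.01 ± 0.05 (KO1 minus KO2, adjusted p = 0.84). The antisense transcript HIF1A-AS3 averaged 5.84 CPM in KO1, 14.8 CPM in KO2 and 8.90 CPM in WT.

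EPAS1, the other alpha subunit, had 34.9, 32.2 and 34.6 CPM in KO1, 42.5, 44.6 and 41.3 CPM in KO2, and 31.0, 32.6 and 33.5 CPM in WT. Every KO2 library stood above every library of the other groups. EPAS1 rose in KO2 by 0.40 ± 0.06 (adjusted p = 2.4e-05) and had 0.07 ± 0.06 in KO1 (adjusted p = 0.37), or 0.13 with the GC trend removed (adjusted p = 0.012). Its share of the summed alpha subunits per exon length was 4.20% in KO1, 5.17% in KO2 and 4.30% in WT.

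EGLN1 and EGLN3 code for prolyl hydroxylases that mark HIF alpha for degradation, and EGLN3 is itself HIF-induced in many cells. EGLN1 had 3.53, 2.72 and 2.87 CPM in KO1, 2.14, 2.64 and 2.47 CPM in KO2, and 3.44, 4.30 and 4.15 CPM in WT. KO2 lay below WT without overlap, and KO1 replicate 1 lay within the WT range. EGLN1 fell by 0.71 ± 0.14 in KO2 (adjusted p = 0.00057) and by 0.38 ± 0.13 in KO1 (adjusted p = 0.040). The KO1 call of EGLN1 was lost without KO1 replicate 2 (-0.31), KO1 replicate 3 (-0.33), WT replicate 2 (-0.30) or WT replicate 3 (-0.34).

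EGLN3 was close to the counting limit, with 9, 8 and 5 counts in KO1, 10, 19 and 14 in KO2, and 1, 4 and 3 in WT. The KO2 libraries stood above the WT libraries, while KO1 replicate 3, at 0.0574 CPM, lay below WT replicate 2 at 0.0648 CPM. Scaled to library totals, the summed counts were 2.49 times WT in KO1 (95% counting interval 1.07 to 6.47) and 6.58 times WT in KO2 (3.06 to 16.2). EGLN3 passed in KO2 (log2 change 2.62 ± 0.58, adjusted p = 0.0015) and not in KO1 (1.26 ± 0.65, adjusted p = 0.15).

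Promoter sequence is shown for 4 genes on which the results turn: CA12 and KDM3A, which moved in opposite directions in the clones, ADM, which fell in both, and LDHA, a classical HIF target. Each window runs from 250 bases before to 50 bases after the RefSeq start (GRCh38.p14), written 5′ to 3′ on the gene's strand. HIF binds a core of ACGTG or GCGTG, and capitals mark every match to either on both strands, so CACGT and CACGC are matches on the other strand, and both strands match in CACGTG. The CA12 window lies at chr15:63381797-63382096 on the minus strand. The KDM3A window lies at chr2:86441121-86441420, the ADM window at chr11:10304823-10305122 and the LDHA window at chr11:18394313-18394612, all on the plus strand.
CA12: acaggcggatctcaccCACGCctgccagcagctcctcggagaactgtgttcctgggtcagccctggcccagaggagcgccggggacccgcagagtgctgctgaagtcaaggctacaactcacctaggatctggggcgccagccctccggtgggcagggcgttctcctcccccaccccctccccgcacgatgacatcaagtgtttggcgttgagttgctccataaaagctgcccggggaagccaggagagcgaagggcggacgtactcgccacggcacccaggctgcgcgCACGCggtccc
KDM3A: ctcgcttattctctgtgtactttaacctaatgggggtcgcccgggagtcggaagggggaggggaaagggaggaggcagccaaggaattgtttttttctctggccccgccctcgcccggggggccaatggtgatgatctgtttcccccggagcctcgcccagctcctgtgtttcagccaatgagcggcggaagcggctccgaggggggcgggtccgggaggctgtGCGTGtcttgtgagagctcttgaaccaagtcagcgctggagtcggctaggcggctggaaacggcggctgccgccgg
ADM: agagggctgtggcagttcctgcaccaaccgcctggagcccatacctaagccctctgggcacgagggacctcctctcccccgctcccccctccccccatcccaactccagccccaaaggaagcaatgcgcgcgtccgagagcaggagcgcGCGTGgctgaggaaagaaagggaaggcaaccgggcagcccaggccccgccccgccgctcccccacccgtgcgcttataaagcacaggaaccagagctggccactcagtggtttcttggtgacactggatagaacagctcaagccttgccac
LDHA: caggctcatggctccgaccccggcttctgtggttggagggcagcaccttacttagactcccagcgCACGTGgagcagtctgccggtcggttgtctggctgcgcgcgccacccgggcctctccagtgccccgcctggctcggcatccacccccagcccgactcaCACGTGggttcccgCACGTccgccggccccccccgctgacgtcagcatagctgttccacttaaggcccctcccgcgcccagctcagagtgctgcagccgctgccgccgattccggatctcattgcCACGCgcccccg

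These windows held 2 matches in CA12, 1 each in KDM3A and ADM, all to GCGTG, and 6 in LDHA, of which 5 were to ACGTG. RefSeq windows were matched by symbol for 34 of the 40 genes, 64 windows in all; SLC2A3, PGM5, SLC16A1, VEGFA, NDRG1 and BNIP3L had no entry. At least 1 match to either core lay in 67.2% of the 64 windows, beside 48.4% of 35116 windows of the same length over all genes. ACGTG lay in 37.5% of the windows, beside 21.4% of all windows, and GCGTG in 43.8%, beside 36.5%. Windows of 1 gene can overlap each other, and a match is a description of the letters only.

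Of the HIF targets, VEGFA, CA12 and KDM3A rose in KO1 and fell in KO2, ADM fell in both clones, and ANKRD37, BNIP3, BNIP3L and NDRG1 were called in 1 clone. VEGFA, the growth factor that draws in blood vessels (chr6:43770184-43786487), had 81.3, 80.9 and 82.7 CPM in KO1, 42.1, 41.7 and 39.1 CPM in KO2, and 66.4, 64.6 and 63.5 CPM in WT. The groups were fully separate, with WT between the clones. VEGFA rose in KO1 by 0.33 ± 0.05 (adjusted p = 4.5e-05) and fell in KO2 by 0.67 ± 0.05 (adjusted p = 1.6e-08), and the KO1 mean was 1.99 times the KO2 mean (KO1 minus KO2 1.00 ± 0.05 on the log2 scale, adjusted p = 1.2e-10).

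CA12, a carbonic anhydrase at the cell surface that helps set the pH outside the cell (chr15:63321378-63382161), had 56.8, 50.6 and 56.7 CPM in KO1, 26.8, 24.1 and 24.3 CPM in KO2, and 36.7, 36.9 and 38 CPM in WT. Here too WT lay between the clones without overlap. The log2 changes of CA12 were 0.56 ± 0.06 in KO1 (adjusted p = 3.7e-06) and -0.57 ± 0.06 in KO2 (adjusted p = 1.3e-06). CA9, the related enzyme often used as a marker of hypoxia, had 0, 0 and 1 counts in KO1, 0, 1 and 0 in KO2, and 3, 3 and 3 in WT. All 9 libraries were thus at or under 3 counts, the level that a count of 0 still allows, and no fold is given; 38.5% of the exon bases of CA9 overlap ARHGEF39 on the opposite strand.

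KDM3A, a histone demethylase (chr2:86440647-86492716), had 64.8, 66.4 and 67.5 CPM in KO1, 39.9, 38 and 43.5 CPM in KO2, and 60, 55.5 and 59.6 CPM in WT. WT again lay between the clones. KDM3A fell in KO2 by 0.53 ± 0.05 (adjusted p = 1.0e-06) and rose in KO1 by 0.19 ± 0.05 (adjusted p = 0.014), a KO1 call lost without KO1 replicate 3 (0.17) or WT replicate 2 (0.16). The KO1 change was 0.12 under the GC correction.

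ADM, which codes for the vessel-widening peptide adrenomedullin (chr11:10304680-10307397), had 26.2, 23.1 and 23.0 CPM in KO1, 30.9, 33.9 and 26.3 CPM in KO2, and 42.2, 43.7 and 41.6 CPM in WT. Both clones lay below WT in every library, and KO1 lay lowest. ADM fell by 0.82 ± 0.08 in KO1 (adjusted p = 3.7e-06) and by 0.49 ± 0.08 in KO2 (adjusted p = 0.00018), or -0.64 in KO1 and -0.30 in KO2 with the GC trend removed. ANKRD37, a small HIF-induced ankyrin repeat protein, averaged 1.26 ± 0.144 CPM in KO1, 0.924 ± 0.0491 CPM in KO2 and 1.5 ± 0.233 CPM in WT. It fell in KO2 by 0.69 ± 0.18 (adjusted p = 0.0044) with -0.24 ± 0.17 in KO1 (adjusted p = 0.28), and 35.2% of its exon bases overlap UFSP2 on the opposite strand.

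The mitophagy receptors BNIP3 and BNIP3L and NDRG1 each had 1 call against WT in the main fit and a further call with the GC correction. BNIP3 rose in KO2 by 0.29 ± 0.04 (adjusted p = 1.3e-05), with 232 ± 2.24 CPM in KO1, 269 ± 7.27 CPM in KO2 and 219 ± 7.76 CPM in WT. BNIP3L rose in KO1 by 0.30 ± 0.06 (adjusted p = 0.0017), with 197 ± 19.2 CPM in KO1, 149.6 ± 4.49 CPM in KO2 and 160.3 ± 6.90 CPM in WT. NDRG1, a stress-responsive growth suppressor, rose in KO1 by 0.32 ± 0.05 (adjusted p = 0.00021), with 129.9 ± 11.0 CPM in KO1, 106 ± 2.28 CPM in KO2 and 104 ± 1.35 CPM in WT. Under that correction BNIP3 was also called in KO1 at 0.09 (adjusted p = 0.024), NDRG1 in KO2 at 0.11 (adjusted p = 0.0047), and BNIP3L in KO2 at -0.15 (adjusted p = 0.0030). BNIP3L was called lower in KO2 as well with only the 2 groups compared (-0.10, adjusted p = 0.041). The same call came without KO1 replicate 2 (-0.10, adjusted p = 0.033). Over the 12 tested HIF genes, subunits and hydroxylases included, the median log2 change was 0.15 in KO1 and -0.30 in KO2, beside -0.04 and 0.00 over the 26 tested genes of uptake, glycolysis and lactate transport.

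The clones were also set against each other directly, a contrast in which WT levels do not enter. HK1, PFKM, ALDOC and PGM1 were lower in KO1 than in KO2, with log2 differences (KO1 minus KO2) of -0.54, -0.31, -1.06 and -0.46, and PKM and LDHA were higher, with 0.49 and 0.15. Among HIF targets VEGFA, CA12 and KDM3A were higher in KO1 than in KO2 by 1.00, 1.13 and 0.72. Of the 24 genes called between the clones, 19 kept their call under all 9 settings that left out 1 library and all 9 others, among them all those just named. SLC16A3 showed 0.47 ± 0.18 and EGLN1 0.33 ± 0.14 between the clones without passing (adjusted p = 0.066 and 0.061). SLC16A3 was called there by DESeq2 (adjusted p = 0.020), by limma-voom (adjusted p = 0.015) and with the GC trend removed (0.35, adjusted p = 8.1e-09). The 1 CPM filter and leaving out KO1 replicate 2 called it too. EGLN1 was called without a low-count filter (0.35, adjusted p = 0.047) and without KO1 replicate 2 (0.40, adjusted p = 0.035).

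Each gene's change was also set beside the median change of its 20 nearest tested protein-coding genes, 10 on each side. The neighbours of PKM had a median of -0.44 in KO2, with 20 of 20 on the same side as PKM, beside PKM's own -0.49; in KO1 they had 0.26. The neighbours of CA12 had -1.42 in KO2, again 20 of 20 on its side, a larger drop than CA12's own -0.57, and 0.15 in KO1. Around SLC16A3 the median was -0.32 in KO1 and -0.42 in KO2, and around KDM3A 0.08 in KO1 and -0.37 in KO2. With the GC trend removed, the median around SLC16A3 was -0.08 in KO1 and -0.11 in KO2. In KO2 it was then -0.40 around KDM3A, -0.44 around PKM and -1.43 around CA12. VEGFA rose in KO1 while its neighbours had -0.34, with 1 of 20 on its side; in KO2 they had -0.30, with 17 of 20 on its side. PGM5 was low among neighbours at 0.13 in KO1 and 0.32 in KO2, and ADM fell among neighbours at 0.16 in KO1 and 0.18 in KO2. GAPDH, which also fell in both clones, had neighbours at -0.12 in each, with 16 of 20 on its side. With the GC trend removed the GAPDH neighbours had 0.01 in KO1 and -0.03 in KO2. The neighbours of EGLN1 had -0.02 in KO1 and 0.00 in KO2. Of the genes that rose in both clones, PGM1 had neighbours at 0.13 in KO1 and 0.23 in KO2, and ENO2 at -0.16 in KO1 and -0.03 in KO2. The neighbours of HIF1A had -0.22 in KO1 and 0.17 in KO2. The part of neighbouring changes in any 1 gene's value was not tested.

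**Figure D3:**
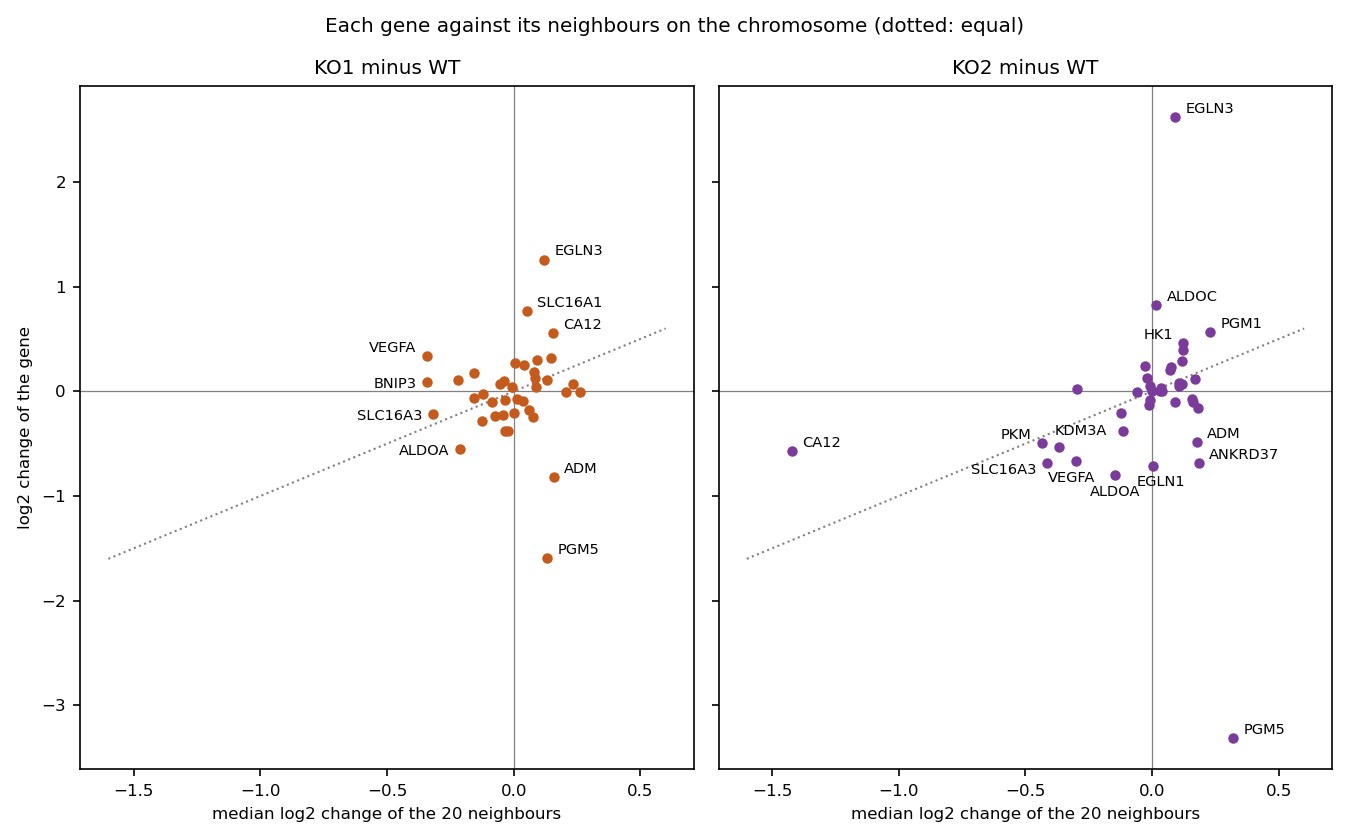
Log2 change of each of 39 genes (y axis) against the median log2 change of its nearest tested protein-coding genes, 20 for all but PFKP (x axis), in KO1 (left) and KO2 (right); on the dotted line both are equal. In KO2, PKM and KDM3A lie near the line, CA12 lies far left at -1.42, and PGM5, EGLN3 and ALDOC lie far from it.

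Levels can be ranked between genes by CPM per kilobase of exon. The length covers all annotated exons of a gene, 8571 bases for PKM and 2700 for TPI1, and can exceed that of the RNA made. In KO1 GAPDH had 839, ENO1 619, LDHA 484, PKM 359.7 and TPI1 336, in KO2 GAPDH had 891, ENO1 730.0, LDHA 439.5, PKM 257 and TPI1 350.2, and in WT GAPDH had 1025, ENO1 701, LDHA 470.4, PKM 361 and TPI1 352, all in CPM per kilobase. By this measure GAPDH, ENO1 and LDHA kept this order of mean levels in all 3 groups. PKM stood above TPI1 in KO1 and WT and below it in KO2, a rank that depends on the lengths used. Without them, the KO2 libraries held 115084, 148018 and 135691 counts of PKM and 50586, 63393 and 57181 of TPI1. At the low end, SLC16A1 had 0.183 CPM per kilobase in KO1, 0.124 in KO2 and 0.108 in WT, and EGLN3 had 0.0124 in KO1, 0.0318 in KO2 and 0.00556 in WT.

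Genes of the same pathways outside the 40 came from 3 lists drawn up with earlier results of these data known. Their counts stand beside the 18% of all tested genes that rose and 16.8% that fell in KO1, and the 24.7% that did each in KO2. Over all tested genes 7.48% rose in both clones and 7.58% fell in both. A further 4.48% rose in KO1 and fell in KO2, and 3.02% did the reverse. Only genes called the same way in both clones are named. Of 51 other glycolytic and branch enzymes 46 were tested. In KO1 10 rose and 9 fell, and in KO2 16 rose and 7 fell. In both clones 4 rose and 3 fell, and 5 had opposite calls. Those called in the same direction in both clones included PDK3, another pyruvate dehydrogenase kinase, at 0.56 in KO1 and 0.66 in KO2, and GFPT1, the entry enzyme of hexosamine synthesis, at 0.33 and 0.58. PGM3, which acts in that same branch, rose by 0.66 in KO1 and 0.11 in KO2. MPC1, a subunit of the mitochondrial pyruvate carrier, had changes of -0.36 in KO1 and -0.42 in KO2, PGLS of the pentose phosphate branch -0.66 in KO1 and -0.37 in KO2, and the sugar carrier SLC2A12 -0.43 in KO1 and -0.62 in KO2.

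Of 25 regulators of HIF 24 were tested. In KO1 4 rose and 5 fell, and in KO2 5 rose and 11 fell. In both clones 1 rose and 4 fell, and 3 had opposite calls. TXNIP, which holds back glucose uptake, rose by 0.24 in KO1 and 0.80 in KO2. CITED2, which competes with HIF for its coactivator, had changes of -0.32 in KO1 and -0.40 in KO2, TSC2, a brake on growth signalling, -0.44 in KO1 and -0.57 in KO2, and the ubiquitin ligase STUB1 -0.82 in KO1 and -0.66 in KO2. Of 47 other HIF targets 43 were tested. In KO1 16 rose and 7 fell, and in KO2 14 rose and 14 fell. In both clones 8 rose and 5 fell, and 4 had opposite calls. The collagen hydroxylase P4HA2 rose by 0.36 in KO1 and 0.58 in KO2, and the receptors KDR and VLDLR by 0.55 and 0.56 in KO1 and both by 0.42 in KO2. The vessel-constricting peptide gene EDN1 had changes of -0.36 in KO1 and -0.76 in KO2, the chemokine receptor CXCR4 -0.45 in KO1 and -0.82 in KO2, and FAM162A, a mitochondrial protein induced by hypoxia, -0.26 in KO1 and -0.27 in KO2.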

How the data were processed

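The deposited files hold raw counts per gene symbol, which the authors did not normalize. HISAT2 and Trim Galore were used, per the submitters' processing notes, which name the builds hg38, GRCm38 and mm10 without a role. Read counter, annotation and strandedness are unstated (not given in the sources used here), so near-identical genes and antisense pairs may share reads. The 40 genes and the lists were chosen with earlier results of these data known.

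Counts were fitted with edgeR 4.0.16 in R 4.3.3 (filterByExpr, TMM factors of 0.986 to 1.01, quasi-likelihood test with robust settings, 1 mean per group over all 9 libraries), with Benjamini-Hochberg adjustment over 17759 genes and calls at an adjusted p under 0.05. The prior biological coefficient of variation was 7.46%. The script was tested on simulated counts. CPM are counts scaled by the library total, without TMM factors. A count of 0 allows up to 3 counts (0.0309 to 0.0572 CPM), and such floors and the 95% intervals cover counting error only. Separate cultures are not named for the libraries of a group, and the spread behind the p-values may be technical. Libraries within each group differed by more than sampling noise (chi-square over its degrees of freedom was 6.36 to 31.9). Deviations of libraries with the same number in different groups had correlations of -0.10 to 0.05, so the numbers were not taken to pair libraries.

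Values in every library were given for PGM5, SLC2A1, HK2, PKM, LDHA, HIF1A, EPAS1, VEGFA, CA9 and for genes called in any contrast with a log2 change of at least 0.7 in size. Named genes of other lists are up to 3 rising and 3 falling a list, called the same way in both clones, at a mean log2 CPM of at least 2, with the smallest p. Gene positions, exon lengths and GC content came from GENCODE 29 (GRCh38), promoter windows from RefSeq (GRCh38.p14), and the GC trend from a lowess curve with a span of 0.3. Alternatives were other size factors, filters, DESeq2 1.42.0, limma-voom 3.58.1, each comparison alone, the replicate block, the GC correction and leaving out each library. Of the marker genes of other cell types, 1 is not reported here.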

Additional observations from a re-analysis of the deposited data

Results flagged for a closer look

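The clones differed from each other in 24 of the 38 tested genes other than PGM5, by edgeR's quasi-likelihood test of KO1 minus KO2 with adjustment over all 17759 genes. Of the 38, 31.6% were higher and 31.6% lower in KO1 than in KO2, beside 23.9% and 24.9% of all tested genes. Nothing is read from those shares. The contrast KO1 minus KO2 is the test of whether the 2 clones changed differently from WT. Each value below is a log2 difference, KO1 minus KO2, with 3 libraries a clone.

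Genes higher in KO1 than in KO2 were CA12 (1.13), VEGFA (1.00), KDM3A (0.72), SLC16A1 (0.56), PKM (0.49), ANKRD37 (0.45), PDK1 (0.43), BNIP3L (0.40), PGM2 (0.32), NDRG1 (0.30), SLC2A1 (0.23) and LDHA (0.15). Genes lower in KO1 than in KO2 were EGLN3 (-1.36), ALDOC (-1.06), HK1 (-0.54), PGM1 (-0.46), EPAS1 (-0.33), ADM (-0.33), PFKP (-0.31), PFKM (-0.31), ENO1 (-0.23), BNIP3 (-0.20), PGAM1 (-0.17) and GPI (-0.13). The direction from WT itself was opposite, with a call in each clone, in CA12, VEGFA and KDM3A.

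Some of these calls between the clones were lost on leaving out 1 library. ANKRD37 (adjusted p = 0.048) and GPI (adjusted p = 0.049) lay close to the threshold in the main fit. WT libraries enter this contrast through the shared estimate of the spread, and the GPI difference stayed at -0.13 where 1 of them was left out. The ANKRD37 call was lost without any single KO1 or KO2 library except KO1 replicate 2, and without WT replicate 3, at 0.36 to 0.48. The GPI call was lost without any single library except KO1 replicate 1 and KO2 replicate 1, at -0.13 to -0.07. The SLC16A1 call was lost without KO1 replicate 2 (0.58), KO1 replicate 3 (0.46), KO2 replicate 1 (0.52) or KO2 replicate 3 (0.48), the EGLN3 call without KO1 replicate 3 (-1.11) or KO2 replicate 2 (-1.18), and the PFKP call without KO2 replicate 1 (-0.31) or KO2 replicate 2 (-0.26).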

How the results depend on the processing

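Of the calls in the 38 genes, 10 of 17 in KO1, 15 of 21 in KO2 and 19 of 24 between the clones held under each of the 9 settings that left out 1 library and the 9 others in which the gene was tested; EGLN3 and SLC16A1 were not tested under the filter of 1 CPM in 3 libraries. With the GC trend removed, the genes that rose numbered 17 in KO1 (against 11) and 16 in KO2 (against 9), while the share of all tested genes that rose was 21.4% in KO1 (against 18%) and 30.1% in KO2 (against 24.7%); the cause was not tested. That correction also turned the sign with a call for PKM in KO1 (0.12, against -0.00), SLC16A3 in KO1 (0.16, against -0.22) and TPI1 in KO2 (0.093, against -0.01); sign changes between values called under neither setting are not counted. Leaving out 1 library at a time gave 7 to 11 genes that rose in KO1, the lowest without KO1 replicate 3, and 4 to 8 that fell. Over all 17759 tested genes, 2459 to 3314 rose and 2170 to 3142 fell in KO1. Without KO1 replicate 3 that number of rises was 2478, against 3200 with all libraries. In KO2 8 to 9 rose and 8 to 14 fell, beside 3900 to 4593 and 3742 to 4674 of all tested genes. Between the clones 10 to 13 were higher and 9 to 12 lower in KO1 than in KO2. Over all tested genes these numbers were 3700 to 4283 and 3856 to 4379. With the replicate block, 9 rose and 5 fell in KO1, beside 2931 and 2613 of all tested genes. In KO2 9 rose and 11 fell with that block, beside 4178 and 4124. There, 11 were higher and 11 lower in KO1 than in KO2, beside 4010 and 4230. Settings other than the GC correction that kept all libraries ended calls of PGAM1, PDK1, PGM1 and EGLN1 in KO1, of SLC2A1, LDHA and HIF1A in KO2, and of ANKRD37, EGLN3, GPI and SLC16A1 between the clones. Depth limits CA9 and EGLN3, at 3 and 19 counts a library or fewer.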
